A study of Morus alba with 4 samples.

Results

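Among the RefSeq predicted mRNAs measured in mature mulberry leaf, 106 distinct transcripts were strongly higher under drought. They were chosen by their values. The lower of the 2 drought libraries had to hold a normalized value of at least 50, and at least 3 times the higher of the 2 well-watered libraries, whose maximum was taken as at least 1. Rows with the same 4 values were counted as 1 transcript, so the 139 rows that met the rule made 106 members. They came from 27648 predicted-mRNA rows, which held 18818 distinct sets of values, and from 37553 rows in all. The members were 0.563% of the distinct predicted mRNAs. Because the rule used the drought contrast itself, the levels and rises below describe the members and carry no test.

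The drought group was 2 libraries of Morus alba (Indian mulberry, genotype Dudia white) whose pots of about 30 kg were held at 40% of soil field capacity for 14 days. The well-watered group was 2 libraries of the same genotype held at 100% of field capacity for the same time. Field capacity is the water a soil keeps after it has drained. Total RNA came from mature leaf, labelled mesophyll, and the series calls the samples biological replicates without saying whether a sample was 1 plant or several.

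A leaf short of water closes its stomata and makes the hormone abscisic acid, and a large programme of transcription follows. In plants generally, transcripts raised by this programme include dehydrins and other late embryogenesis abundant proteins, chaperones, enzymes for compatible solutes such as proline and raffinose sugars, detoxifying enzymes, and transcription factors of the NAC, MYB, bZIP and DREB families. Some of these transcripts are known for being nearly silent in watered tissue, while others raise an existing level. The deposited files pair no identifier with a gene or product, so which of these classes the members belong to was not analysed here, and the labelled tissue was not checked against marker genes. The members are therefore described by their levels, with 2 of them given by identifier.

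Summed over all predicted-mRNA rows, the normalized values came to 15683648 in drought library 1 and 11174504 in drought library 2, and to 13865854 and 13404918 in the well-watered pair. The drought libraries lay on either side of the well-watered pair, library 1 above it and library 2 below. The typical transcript did not follow that gap. The 16946 distinct predicted mRNAs that reached 10 units in 2 or more libraries are called tested below. Among them the median value was 112 and 113 in drought libraries 1 and 2, against 117 and 116 in well-watered libraries 1 and 2. The spacing of the values gave the worth of a read, 1.11 and 0.84 units in the drought pair, against 1.22 and 0.86 units in the well-watered pair. In library 1 of each treatment every low value fell on a rounded multiple of that worth. In library 2 of each treatment it is the best match to the pile-up of values, with a correlation of 0.912 in drought and 0.577 in well-watered leaf, so read numbers for well-watered library 2 are the least certain. A value of 50 thus stood for about 45.0 and 59.5 reads in drought libraries 1 and 2. A value of 5 stood for about 4.09 and 5.81 reads in well-watered libraries 1 and 2.

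Most members were above the typical leaf transcript in drought, and most were below it when watered. The drought mean of a member had a median of 230.25 and ranged between 54 and 15878.5. The well-watered mean had a median of 26.25 and ranged between 0.5 and 3236. Tested predicted mRNAs had a median of 112.5 in drought leaves and 117 in well-watered leaves. Of the 106 members, 76 lay above the typical level in drought and 88 lay below it when watered, and 58 did both. The rule favours this pattern, since it sets a floor in drought and a ceiling when watered. Leaf is a bulk tissue here, so more RNA per cell and more cells of a type holding the transcript cannot be told apart.

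**Figure D1:**
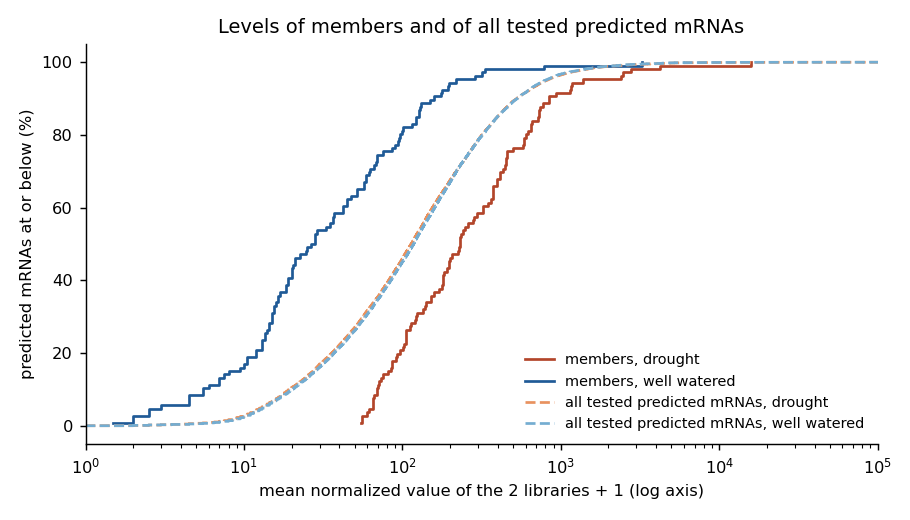
Cumulative share of predicted mRNAs (vertical axis, percent) at or below a level (horizontal axis, mean normalized value of the 2 libraries of a treatment plus 1, log axis), for the 106 members and the 16946 tested predicted mRNAs. The members' drought curve lies to the right of the general curves, with a median of 230.25, and their well-watered curve to the left, with a median of 26.25.

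Levels before stress covered a wide range. A well-watered mean under 10 was found in 20 members, 10 to under 50 in 47, 50 to under 200 in 33, and 200 or more in 6. The lower drought value was a median of 19.0 times the higher well-watered value in the 20 lowest members, 5.0 times in the next 47, 3.67 times in the 33 after those and 3.79 times in the 6 highest. The well-watered value forms both these classes and the bottom of the ratio, and the floor of 50 shuts out low transcripts with a small rise, so this order is built into the measure and nothing is read from it.

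No member was silent when watered. None of the 106 was listed at 0 in both well-watered libraries, 1 held at most 1 in both, 9 at most 5 and 17 at most 10. A 0 in a single well-watered library occurred in 7 members, 5 times in library 1 and 2 times in library 2. In well-watered library 1 a read was worth more, so a 0 there is the coarser reading. The ratio did not shut silent transcripts out, since the well-watered maximum was taken as at least 1, but the floor in drought did. At 0 in both well-watered libraries were 83 distinct predicted mRNAs, and 9 of those reached 10 or more in both drought libraries. Of the 83, the one with the highest lower drought value had 89 and 45 in drought libraries 1 and 2, just under the floor. The lack of silent members therefore rests on where the floor was set, and they were not recounted at a lower floor. At most 5 in both well-watered libraries was seen in 1001 distinct predicted mRNAs, of which 9 were members, 0.899%, against 0.563% over all distinct predicted mRNAs.

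The typical rise was several-fold, with a long upper tail. On the log2(value + 1) scale the difference, drought minus well watered, had a median of 2.71 over the 106 members, a 6.54-fold change. The lower and upper quartiles were 2.24 and 3.52, and the extremes were 1.68 and 7.52. Over the tested predicted mRNAs the median difference was -0.01. A difference of at least 2 on this scale, 4-fold, was reached by 97 members and one of at least 5 by 13. Counted by the stricter ratio of the lower drought to the higher well-watered value, 41 members lay between 3 and 4, 15 between 4 and 5, 33 between 5 and 10, 5 between 10 and 20, and 12 at 20 or above. Of the 17 members at 10 or above, 13 had a well-watered mean under 10.

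**Figure D2:**
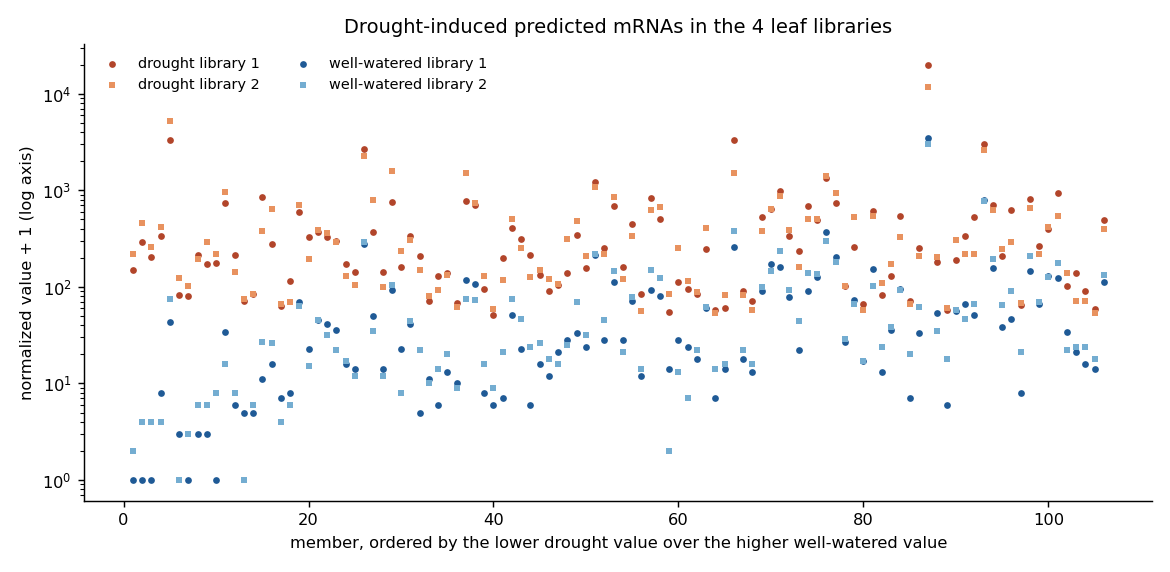
Normalized value plus 1 (vertical log axis) of each of the 106 members in the 4 libraries, ordered along the horizontal axis by the lower drought value over the higher well-watered value. Drought points lie above well-watered points for every member by the rule, the well-watered points drop to 0 to 7 in most of the first 10 members, and the member with the highest drought mean, at 19941 and 11816, stands near the right end.

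The largest ratio belonged to rna-XM_010109864.2, with 147 and 217 in drought libraries 1 and 2, against 0 and 1 in well-watered libraries 1 and 2. It was at the edge of detection in watered leaf, with about 1 read over both libraries. The ratio of summed reads was 370 with an exact binomial 95% interval of 66.1 to 14663, which covers counting error only and uses the estimated worth of a read, here and below. Its level in drought was below the members' medians, which were 213.5 and 219 in drought libraries 1 and 2.

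The next 2 members by ratio also had 0 in well-watered library 1. The second had 293 and 457 in drought libraries 1 and 2, against 0 and 3 in well-watered libraries 1 and 2, a ratio of summed reads of 255 (95% interval 87.0 to 1239). Its 4 values were held by 4 predicted-mRNA rows and by 2 assembled transcripts, so it is 1 observation listed 6 times. The third had 204 and 259 in drought leaves, against 0 and 3 in well-watered leaves, a ratio of 155 (95% interval 52.8 to 756). Intervals this wide overlap one another, so the order of the first 3 is not settled by the counts.

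The fifth by ratio differed from the rest of the top 10 in its level. It had 3290 and 5225 in drought libraries 1 and 2, against 42 and 74 in well-watered libraries 1 and 2. Its log2 difference of 6.19 had a standard error of 0.29, and the ratio of summed reads was 72.5 (95% interval 60.5 to 87.5). Standard errors here and below are moderated by limma, which draws each toward the spread of all rows fitted. They can be smaller than the 4 libraries alone would give. For this member, library 1 minus library 2 was -0.67 in drought and -0.80 when watered on the same scale. This was the member with both a high level and a large rise, and the one of the top 10 with a drought mean of 1000 or more.

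The other 6 of the top 10 were low to moderate in drought and a few units when watered. The fourth had 334 and 414 in drought leaves, against 7 and 3 in well-watered leaves. The sixth had 81 and 123 in drought, against 2 and 0 when watered, and the seventh 80 and 100 against 0 and 2. These last members rest on about 2 reads in the well-watered group.

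The eighth had 214 and 194 in drought leaves, against 2 and 5 in well-watered leaves. The ninth had 172 and 291 in drought, against 2 and 5 when watered. The tenth had 176 and 219 in drought, against 0 and 7 when watered. Ratios of summed reads for these 6 lay between 49.6 and 104, with 95% intervals whose lower ends were 24.7 to 43.8. In 9 of the 10 largest rises drought library 2 was the higher of the pair.

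**Figure D3:**
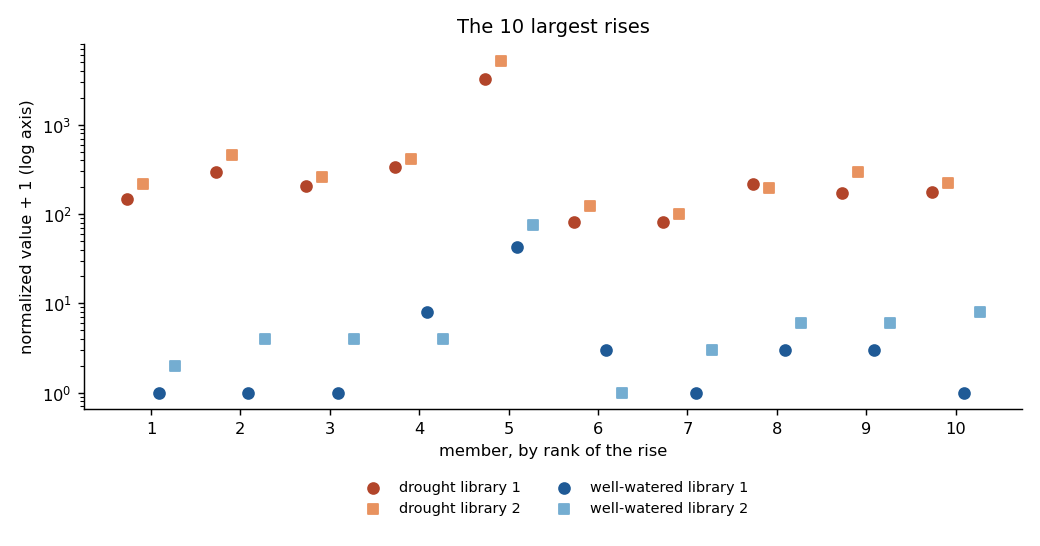
Normalized value plus 1 (vertical log axis) of the 10 members with the largest ratio of the lower drought to the higher well-watered value, by rank (horizontal axis), with the 2 drought libraries left of the 2 well-watered libraries. The fifth member, at 3290 and 5225 in drought, stands above the others, whose drought values lie between 80 and 457.

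By level, 9 members had a drought mean of 1000 or more, 75 had 100 to under 1000 and 22 had under 100. The highest was rna-XM_010110474.2, with 19941 and 11816 in drought libraries 1 and 2, against 3492 and 2980 in well-watered libraries 1 and 2. It was already abundant in watered leaf and its log2 difference of 2.25 (standard error 0.22) was below the members' median. Its 4 values were also held by 2 assembled transcripts, and the drought libraries differed by 1.69-fold. Next after it came the fifth-ranked rise described above.

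The member next in level had 2978 and 2590 in drought leaves, against 791 and 775 in well-watered leaves. Its log2 difference of 1.83 had a standard error of 0.12, the smallest among the members. The member after it had 2676 and 2285 in drought, against 279 and 293 when watered, a log2 difference of 3.11 (standard error 0.13). In both of these the libraries of a treatment lay close together. Then came one with 3290 and 1492 in drought, against 258 and 377 when watered and a log2 difference of 2.82 (standard error 0.34), and its drought libraries were 2.21-fold apart.

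The drought libraries lay within 1.5-fold of each other in 78 of the 106 members, 73.6%, against 78.3% of tested predicted mRNAs. The absolute log2 difference between drought libraries 1 and 2 had a median of 0.34 over the members and 0.27 over the tested predicted mRNAs. The rule acts on the lower drought value, so it tends to leave out transcripts with a wide drought gap. The levels of the 2 sets also differ, so these comparisons are a description only. Neither library led: 51 members were higher in drought library 1, 53 in drought library 2, and 2 were equal. The median signed difference was -0.01 over members. At the extremes 10 members were at least 2-fold apart, 4 higher in library 1 and 6 in library 2.

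**Figure D4:**
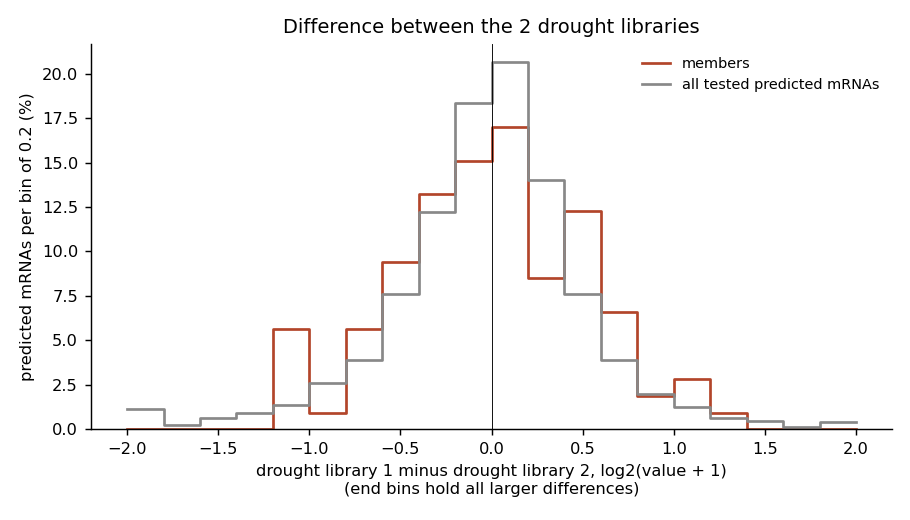
Distribution of the difference between drought libraries 1 and 2 on the log2(value + 1) scale (horizontal axis) for the 106 members and the 16946 tested predicted mRNAs, as percent per bin of 0.2 (vertical axis). Both curves centre near 0, and the members reach from -1.20 to 1.29, with a few members toward each end.

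The 5 widest gaps between the drought libraries were these. The widest was 533 and 217 in drought libraries 1 and 2, against 50 and 66 in well-watered libraries 1 and 2. In second place were 275 and 632 in drought, against 15 and 25 when watered, and after it 137 and 312 in drought, against 27 and 24 when watered. Drought library 1 was the high one in the first of these and drought library 2 in the others. The fourth gap was 111 and 250 in drought, against 27 and 12 when watered. The fifth was 855 and 382 in drought, against 10 and 26 when watered. The direction of their rise was fixed by the rule, while its size differed more than 2-fold with the drought library used.

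Of the 6 members at least 2-fold higher in drought library 2, 4 had accession numbers at most 5 apart. Beside the second gap above and the one after it, these were a member with 373 and 791 in drought libraries 1 and 2, against 49 and 34 in well-watered libraries 1 and 2, and one with 764 and 1581 in drought, against 92 and 104 when watered. Drought library 2 was 2.07 to 2.30 times drought library 1 in the 4. They were singled out after their values were seen. Members with accession numbers at most 5 apart made 5 such runs with 12 members in all, and in each of the 5 runs every member leaned to the same drought library. Most runs were pairs, and the same was not counted over all tested predicted mRNAs, so nothing is read from this agreement. The files do not say whether the members of a run are transcripts of 1 gene or of a family, so a run may be less than its number of independent observations.

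One member of such a run had 142 and 103 in drought libraries 1 and 2, against 13 and 11 in the well-watered pair. Its neighbour had 140 and 98 in drought, against 13 and 11 when watered. The 2 members differ by at most 5 units in any library. Sharing of all 4 values was wider: 20 of the 106 members were held by more than 1 predicted-mRNA row, 53 rows in all and up to 6 for 1 member, and 9 members had their 4 values also in a row of another class, 6 of them in assembled transcripts and 3 in predicted non-coding RNAs. Whether strand was used in counting is not given in the sources used here.

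When watered, the members were less even between libraries than other transcripts. The absolute log2 difference between well-watered libraries 1 and 2 had a median of 0.53 over the members and 0.22 over the tested predicted mRNAs. The members were also lower when watered, through the rule's ceiling, with a median well-watered mean of 26.25 against 117. Unevenness was not compared at matched levels, so it is not read as a trait of the members. Well-watered library 2 was the higher in 68 members, 64.2%, and library 1 in 36. Among tested predicted mRNAs library 2 was the higher in 47.4%, and in 50.5% of those with a well-watered mean under 50. The median rise was 2.53 without well-watered library 1 and 2.93 without well-watered library 2. Low values carry more counting error, and the part of depth in this lean was not tested.

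Together the members took a small share of the leaf's predicted-mRNA signal, several times larger in drought. Their values summed to 63931 and 56456 in drought libraries 1 and 2, and to 9597 and 9732 in well-watered libraries 1 and 2. The mean sum was 60193.5 ± 5286 in drought and 9664.5 ± 95.5 when watered (SD, n = 2 each), 6.23 times as much. As a share of the distinct predicted-mRNA sum this was 0.438% and 0.560% in drought, against 0.0750% and 0.0789% when watered. The groups are far apart compared with the gap within each, which the choice of members fixes. Predicted mRNAs were themselves a very small part of the values of all rows. Those summed to 4773539793 and 2910603473 in drought libraries 1 and 2, and to 3729609294 and 3723910998 in well-watered libraries 1 and 2. Rows with the same values were not merged in these sums, and overlapping assembled transcripts may count a read many times. The sums are therefore no measure of the predicted mRNAs' part of leaf RNA.

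A few transcripts set both sides of that share. The member with the highest level made up 31.2% and 20.9% of the members' sum in drought libraries 1 and 2, and 36.4% and 30.6% in well-watered libraries 1 and 2. The 5 members with the highest drought means made up 50.3% and 41.5% in drought, against 50.7% and 46.2% when watered. In the denominator, the 10 highest predicted mRNAs held 70.9% and 60.0% of the sum in drought, against 68.0% and 67.3% when watered. Most of that was a single transcript in each library. The highest value was about 9405860 and 5253080 in drought libraries 1 and 2, of distinct sums of 14585190 and 10076791. In well-watered libraries 1 and 2 it was about 8120440 and 7724210, of 12797887 and 12334250. With those 10 left out, the members' share was 1.51% and 1.40% in drought, against 0.234% and 0.241% when watered. The order of the drought libraries thus turned: library 2 had the larger share of the whole sum and library 1 the larger share without the 10 highest transcripts.

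**Figure D5:**
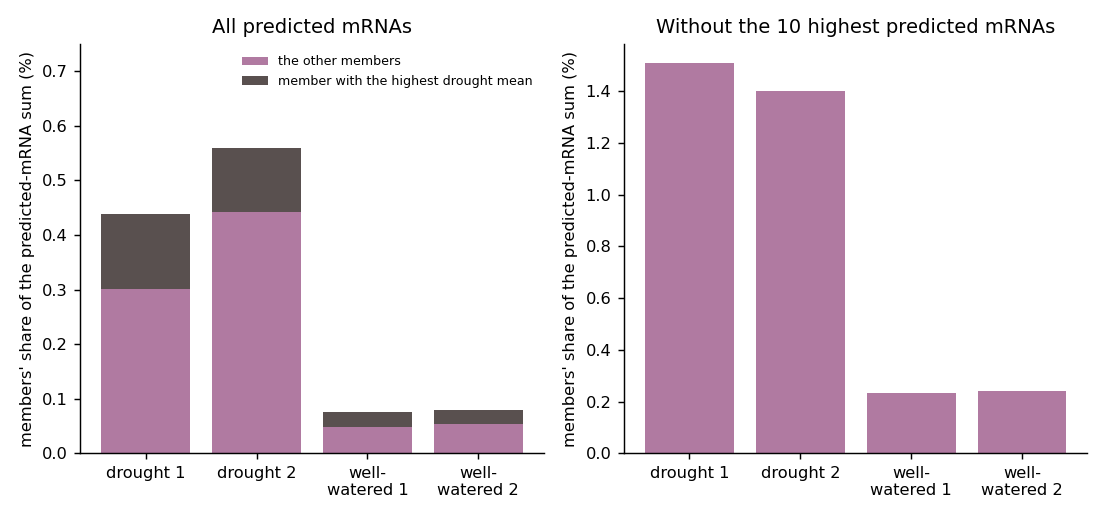
Members' share of the distinct predicted-mRNA sum (vertical axes, percent) in each library, over all predicted mRNAs (left, with the member of the highest drought mean in the dark segment) and with the 10 highest predicted mRNAs left out of the sum (right). The share is 0.438% and 0.560% in the drought libraries and under 0.08% in the well-watered libraries on the left, and 1.51% and 1.40% against 0.234% and 0.241% on the right.

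The set has no sharp edge. Just inside the ratio of 3 stood members with 486 and 396 in drought, against 111 and 131 when watered (ratio 3.02), with 58 and 52 against 13 and 17 (3.06), and with 137 and 71 against 20 and 23 (3.09). Just outside were transcripts with 468 and 377 in drought, against 112 and 126 when watered (2.99), with 254 and 267 against 72 and 87 (2.92), and with 70 and 70 against 24 and 13 (2.92). Those just outside missed the ratio by a few units in the lower drought library.

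At the floor, the lowest members had 50 and 58 in drought, against 5 and 8 when watered, 57 and 52 against 6 and 13, and the 58 and 52 already given. Just under the floor were 175 and 48 in drought, against 2 and 5 when watered, 48 and 53 against 16 and 14, and the 89 and 45 against 0 and 0 described above. The first and last of these had larger ratios than most members and missed the set through drought library 2 alone.

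All 106 members were among the transcripts called higher in drought in the fit over all rows (limma, adjusted p under 0.05). That fit called 4.62% of its 28254 rows higher, and 4.09% of the 16946 distinct predicted mRNAs. Both drought values lay above both well-watered values in 25.7% of the distinct predicted mRNAs tested. The rule used the same contrast, so nothing is read from the members' count. When 1 library was left out calls were lost over the whole table, 1304 rows being called higher with all 4 libraries, 10 without drought library 1 and 0 without any other. Of the members, 2 then passed without drought library 1, and 0 without drought library 2, well-watered library 1 or well-watered library 2, while the median log2 difference of those tested lay between 2.47 and 2.93. The standard error of the log2 difference had a median of 0.33 over the members and ranged between 0.12 and 0.86. The members made up 15.3% of the 693 distinct predicted mRNAs called higher. The remainder missed the floor or the ratio, which 1 library can decide. Against the 106 that were higher in drought, the same thresholds with the groups exchanged picked 155 distinct predicted mRNAs that were lower.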

How the data were processed

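Leaf RNA of 2 drought and 2 well-watered samples was analysed. Per the submitters' processing notes, bcl2fastq 2.20, HISAT2 and featureCounts were used. The build, the annotation, tool settings and the method of normalization are not stated in what was used here. The deposited tables give each row a score, rounded to a whole number, that is normalized per the file headers. Groups follow the treatment label, and library numbers follow deposition order and pair nothing.

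The members and lists were chosen with earlier results of these data known. The worth of a read was estimated from the spacing of low values and tested on simulated data. Reads were not recovered exactly, so no count model was fitted. limma 3.58.1 (R 4.3.3) with a trend was fitted to log2(value + 1) of all rows that reached 10 units in 2 or more libraries, with Benjamini-Hochberg adjustment and a threshold of 0.05. It was tested on simulated data. Such differences understate the change of low rows. P-values and standard errors combine the spread of a row's 4 libraries with the trend of spread over all rows fitted. They measure only the spread between these samples, which may be technical.

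Members given singly were the 10 largest ratios, the 5 highest drought means, the 5 widest drought gaps, the 3 nearest each threshold, and, chosen after their values were seen, those with neighbouring accession numbers. The planned product lists and cell type markers could not be matched to identifiers, and no sequence was used here. Alternatives covered thresholds, scaling, pseudocounts, filters, spread estimates and leaving out each library.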

Additional observations from a re-analysis of the deposited data

Results flagged for a closer look

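The thresholds that chose the members were also passed by rows outside the predicted mRNAs. Assembled transcripts, which the transcript assembler named and which can overlap annotated genes, contributed 23 distinct sets of values that no member holds. Of these, 15 lay within 5% or 3 units of a member in all 4 libraries, which leaves 8 that did not resemble any member that closely. The largest ratio among the 23 was 140, in a transcript with 280 and 447 in drought libraries 1 and 2, against 0 and 2 in well-watered libraries 1 and 2. Among the 8 were 3 transcripts with drought library 2 at 2.01 to 2.05 times drought library 1. Rows named by a gene identifier contributed 4 further sets, none within that tolerance of a member, with drought values of 61 to 192, against 7 to 53 when watered. These rows are listed because they lie outside the predicted mRNAs that the report describes and were above the well-watered level in drought. They entered the report only through the fit over all rows.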

How the results depend on the processing

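The set of 106 members kept a size within 1.5 times under floors of 20 and 100, every row counted, and 3 scalings (106 to 111 members). Taking the well-watered maximum as at least 10 could not change the set, because the floor of 50 is already above 3 times 10. Scaling by predicted-mRNA totals shared 95 of its 111 members with the set. A ratio of 2 gave 255 members and a ratio of 5 gave 50. Leaving out 1 library gave 130 to 176 members, 176 without drought library 1, 164 without drought library 2 and 173 without well-watered library 2, since fewer conditions then apply. The median log2 difference of the 106 members lay between 2.53 and 2.93 under other pseudocounts and scalings, every row counted and each library left out. Over the 90 still tested without drought library 1 it was 2.47. The drought share of the predicted-mRNA sum, 0.499% on average, was 1.45% with the 10 highest transcripts left out and, chosen after seeing the data, 0.372% without the leading member. It was 0.438% and 0.560% with 1 drought library each. Against 0 members silent in both well-watered libraries, 1 held at most 1 and 9 at most 5, and 2 and 5 were at 0 in the library that remained without well-watered library 1 or 2. The limma count of 106 fell to 7 with no filter on low values and to 0 to 2 when 1 library was left out: 2 without drought library 1, and 0 without drought library 2, well-watered library 1 or well-watered library 2, where 88, 106 and 106 members had an unadjusted p under 0.05. Those fits take the spread of the single library from the other treatment, and 90 members were tested without a drought library. It was 75 to 106 elsewhere. The cause was not tested. Of 229 refits of the 19 members named for rise, level or gap, 181 moved the log2 difference by less than its standard error, 48 by more, and 0 reversed it. Leaving out a library or changing the pseudocount could not reverse it, since the rule puts both drought values above both well-watered values. Changing the filter, trend, spread estimate or rows fitted cannot move a log2 difference at all. Those refits are among the 181 by construction, so nothing is read from these counts. Count models were planned for true counts only and left out. No paired analysis was possible because no label numbers or pairs the samples.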
